A study of Mus musculus with 6 samples.

Results

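The genes described here are 10 genes whose products fill, or lie beside, the granules of neutrophils, chosen by symbol as a list of neutrophil genes: S100a8, S100a9, Ngp, Camp, Ltf, Lcn2, Elane, Mpo, Retnlg and Mmp9. All 10 were found among the 34245 genes of the expression table. Expression was measured by RNA-seq in 1 group of 3 Dnmt3b+/- peripheral T-cell lymphomas (PTCL), each an independent tumor from a lymph node of an FVB mouse that carried 1 knockout allele and 1 normal allele of the de novo DNA methyltransferase Dnmt3b in its germline. RNA was made from tumor tissue without sorting, so every cell type of the node could contribute, and age is not given in the labels. No control library, and none of the 3 samples of whole-genome bisulfite sequencing, was analysed here, so all results are descriptions of 3 tumors with no test between groups. Values are linear FPKM, that is, fragments relative to exon length and sequencing depth. The depth came to 30726570 reads for tumor 1, the deepest, and to 18969988 and 20770928 for tumors 2 and 3. A gene without a read is listed in the table at the FPKM of 0.9 read, and sums, medians and shares use that value.

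Neutrophils make their granule proteins in sequence while they mature in the bone marrow. The primary (azurophil) granules with myeloperoxidase and serine proteases are filled at the promyelocyte stage, the specific granules with lactoferrin and cathelicidin at the myelocyte stage, and the gelatinase granules with Mmp9 later still. Messages of primary granule proteins are nearly gone from circulating neutrophils, whereas S100a8 and S100a9, which make up much of the cytosolic protein, stay abundant. In T-cell lymphoma tissue neutrophils are one of several kinds of myeloid cell that can infiltrate the node.

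The members spanned a wide range of levels, and tumor 2 held the least of their sum. Ranked by FPKM among all genes of the table, S100a9 stood at percentiles 95.8, 68.0 and 91.2 in tumors 1, 2 and 3. S100a8 stood at 91.9, 58.8 and 81.9. Elane had no read in any tumor and Mpo had 1 read, in tumor 1. Both are left unranked, since the FPKM listed for a gene without a read depends on its exon length. Summed over the 10 genes, tumor 1 had 40.6 FPKM, tumor 2 had 1.93 and tumor 3 had 17.5, a mean of 20.0 ± 19.5 (SD, n = 3), so the spread between tumors was about as large as the mean. These sums were 0.0215%, 0.000932% and 0.00783% of all FPKM in tumors 1, 2 and 3. Without tumor 1 the mean of the sums was 9.72. The sum in tumor 1 was 21.1 times and that in tumor 3 9.09 times the sum in tumor 2. These folds rest largely on S100a8 and S100a9, and without this pair they were 6.92 and 4.06. Counted as reads summed over the 10 genes, which gives long genes more weight, they were 13.3 (95% interval 9.71 to 18.8) and 5.78 (4.13 to 8.28). The median of 11197 genes with a mean of at least 1 FPKM differed by a log2 of 0.18 between tumors 1 and 2 and by -0.06 between tumors 3 and 2, and after scaling by median-of-ratios factors the FPKM sums of all 10 stood at 18.5 and 9.39 times tumor 2. In tissue RNA fewer cells of a type and less RNA per cell cannot be told apart.

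Only 2 of the 10 genes, S100a8 and S100a9, were above 0.2 FPKM in every tumor, beside 36.7% of all 34245 genes. Tumors 1, 2 and 3 had 8, 2 and 6 of the 10 genes past 0.2 FPKM, beside 42.9%, 42.1% and 39.4% of all genes. With tumor 2 left out, 6 of the 10 passed in both other tumors, beside 38.1% of all genes. For 6 of the 10, over 60% of the gene's total FPKM came from 1 tumor, beside 14.6% of the 14733 genes with a mean of at least 0.2 FPKM. The ratio of the highest to the lowest tumor, with no tumor taken below the FPKM of 3 reads, was at least 2 for 8 of the 10, beside 42.6% of the same 14733 genes. Of the members, 7 reached that mean of 0.2 FPKM, which a gene can pass through 1 high tumor, and among these 7 the counts were 5 for the share and 7 for the ratio. Tumor 2 was the lowest tumor for 7 of the 10, and for 6 of these 7, beside 36.2% of genes at that mean. The order tumor 1, tumor 3, tumor 2 from high to low was found for 5 of the 10, and for 4 of the 7, beside 28.1% of genes.

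**Figure D1:**
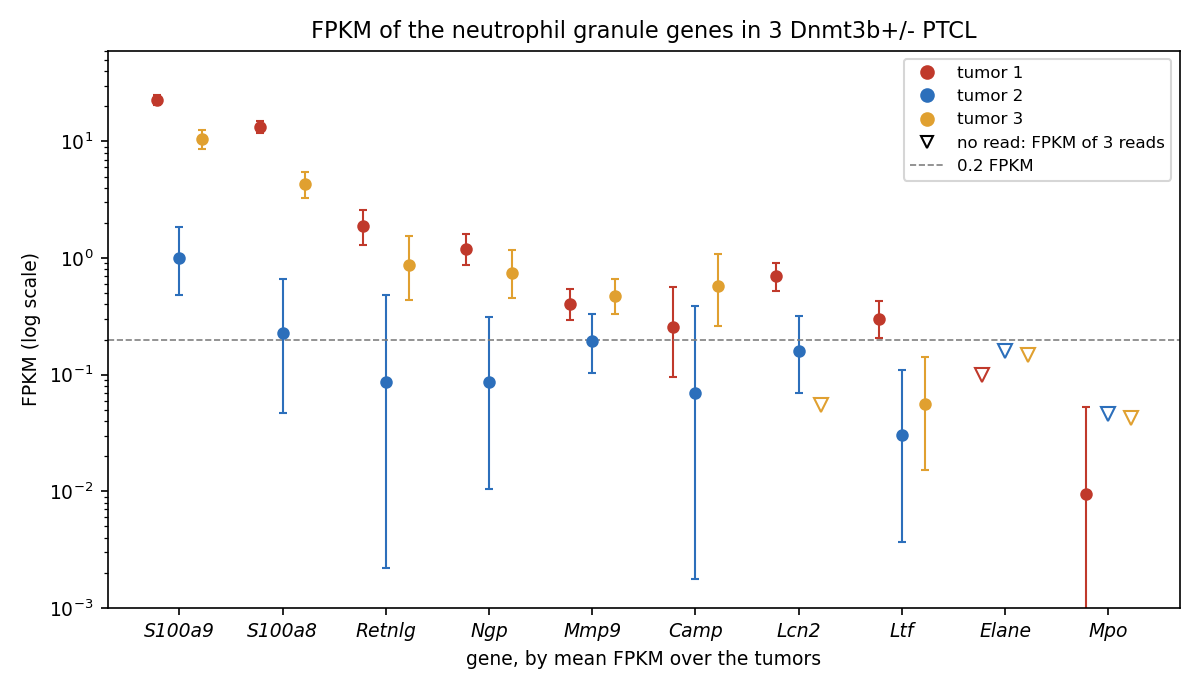
FPKM of each of the 10 genes (log axis) in tumors 1, 2 and 3, ordered by mean FPKM. Points are the tumors, bars are exact 95% Poisson intervals of the reads and cover counting error only, open triangles mark the FPKM of 3 reads where no read was recovered, the dashed line is 0.2 FPKM, and the bar of Mpo in tumor 1 runs below the axis. S100a9 and S100a8 lead in all 3 tumors, tumor 2 lies lowest for 7 genes, and Elane has triangles only.

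S100a8 and S100a9 encode the calcium-binding subunits of calprotectin, a heterodimer that fills the neutrophil cytosol, is also made by monocytes, and binds zinc and manganese once released. S100a9 (ENSMUSG00000056071, mm10 chr3:90692632-90695721, minus strand) was the most abundant member, at 22.6, 1.01 and 10.4 FPKM in tumors 1, 2 and 3 (mean 11.4 ± 10.8, SD, n = 3). S100a8 (ENSMUSG00000056054, chr3:90668978-90670035, plus strand) stood at 13.2, 0.228 and 4.30 FPKM (mean 5.92 ± 6.65). The genes lie 22.6 kb apart. Together they made up 88.3%, 64.2% and 84.0% of the members' FPKM in tumors 1, 2 and 3, so the sum over the members mostly follows this pair.

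The 3 tumors were separated beyond counting error for both calprotectin genes. S100a9 was recovered as 363, 10 and 113 reads in tumors 1, 2 and 3, and the 95% Poisson intervals of its FPKM, 20.4 to 25.1, 0.484 to 1.86 and 8.59 to 12.5, do not overlap. Its ratio between tumors 1 and 2 was 22.4 (95% interval 12.0 to 47.1), between tumors 3 and 2 10.3 (5.41 to 22.1), and between tumors 1 and 3 2.17 (1.75 to 2.71). S100a8 had 282, 3 and 62 reads, with intervals of 11.7 to 14.9, 0.0470 to 0.666 and 3.30 to 5.51 FPKM. With only 3 reads in tumor 2, its ratio between tumors 1 and 2 of 58.0 has an interval of 19.7 to 283.1. S100a9 exceeded S100a8 in each tumor, by a ratio of FPKM of 1.71, 4.43 and 2.42 in tumors 1, 2 and 3. All such intervals are exact, come from recovered reads and cover counting error only, not the differences between animals.

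Retnlg encodes a resistin-like secreted protein found in mouse neutrophils. Retnlg (ENSMUSG00000022651, chr16:48872608-48874498, plus strand) was the third by mean FPKM, with 1.87, 0.0867 and 0.871 FPKM in tumors 1, 2 and 3 (mean 0.944 ± 0.896, SD, n = 3). These values stand for 35, 1 and 11 reads over 608 exon bases. Tumor 1 was 2.15 times tumor 3 (95% interval 1.07 to 4.69), and 21.6 times tumor 2, with an interval of 3.63 to 877.6 that reflects the single read in tumor 2. The order of the tumors was that of S100a8 and S100a9.

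The members of the specific granules did not share 1 order of tumors. Ngp, neutrophilic granule protein, is a member of the cystatin superfamily. Ngp (ENSMUSG00000032484, chr9:110419747-110423012, plus strand) stood at 1.20, 0.0863 and 0.749 FPKM in tumors 1, 2 and 3 (mean 0.678 ± 0.559, SD, n = 3), from 45, 2 and 19 reads. Tumors 1 and 3 were not separated by counting, with a ratio of 1.60 (95% interval 0.918 to 2.90), while tumor 3 was 8.68 times tumor 2 (2.09 to 76.8). Camp is the single cathelicidin gene of the mouse, the precursor of an antimicrobial peptide. Camp (ENSMUSG00000038357, chr9:109847379-109849617, minus strand) was highest in tumor 3, with 0.258, 0.0695 and 0.572 FPKM (mean 0.300 ± 0.254), but these are 6, 1 and 9 reads. The ratio of tumors 1 and 3, 0.451, had an interval of 0.132 to 1.42, so that their order was not detectable at this depth.

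Ltf and Lcn2, which take iron from microbes, were concentrated in tumor 1. Ltf encodes lactoferrin, an iron-binding glycoprotein of the specific granules. Ltf (ENSMUSG00000032496, chr9:111019271-111042767, plus strand) stood at 0.302, 0.0306 and 0.0558 FPKM (mean 0.129 ± 0.150, SD, n = 3), so that tumor 1 held 77.8% of its summed FPKM. Its 32, 2 and 4 reads separate tumor 1 from tumor 3, with a ratio of 5.41 (95% interval 1.92 to 21.05), but not tumor 3 from tumor 2, with 1.83 (0.262 to 20.2). Lcn2 encodes lipocalin 2, which binds bacterial siderophores and is also made by macrophages and epithelial cells. Lcn2 (ENSMUSG00000026822, chr2:32384633-32388252, minus strand) was the exception among the members, with 0.695 and 0.161 FPKM in tumors 1 and 2 and no read in tumor 3, where 3 reads would be 0.0551 FPKM. From 56, 8 and 0 reads, tumor 1 stood at 12.6 times the FPKM of 3 reads in tumor 3, which leaves out the counting error of its 56 reads. The 95% interval of the ratio between tumors 3 and 2 reached up to 0.535. Every other member with more than 1 read was lowest in tumor 2. Camp, Ngp and Ltf lie within 1.20 Mb of chromosome 9, the span from the start of Camp to the end of Ltf.

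Mmp9 encodes the gelatinase of the late granules, a metalloproteinase that macrophages and lymphocytes also make. Among the 8 members with more than 1 read, Mmp9 varied least. Mmp9 (ENSMUSG00000017737, chr2:164940780-164955850, plus strand) stood at 0.405, 0.194 and 0.476 FPKM in tumors 1, 2 and 3 (mean 0.358 ± 0.147, SD, n = 3), from 44, 13 and 35 reads. Tumors 1 and 3 were each above tumor 2 beyond counting error, with ratios of 2.09 (95% interval 1.11 to 4.23) and 2.46 (1.27 to 5.06). Between tumors 1 and 3 the ratio of 0.850 had an interval of 0.533 to 1.36, and their order turned when each tumor was rescaled to the same sum.

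The members of the primary granules were at or near 0. Elane encodes neutrophil elastase and Mpo myeloperoxidase, the enzyme that makes hypochlorous acid. No read of Elane (ENSMUSG00000020125, chr10:79886247-79888215, plus strand) was recovered in any tumor, which allows up to 0.0992, 0.161 and 0.147 FPKM in tumors 1, 2 and 3. Mpo (ENSMUSG00000009350, chr11:87793581-87804413, plus strand) had 1 read in tumor 1 and none in tumors 2 and 3, against limits of 0.0285, 0.0462 and 0.0422 FPKM for 3 reads. No fold was taken for either gene, since every tumor was at or under 3 reads.

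By mean FPKM the 8 members with more than 1 read ran S100a9, S100a8, Retnlg, Ngp, Mmp9, Camp, Lcn2 and Ltf. No pair of neighbours in this order differed by more than the larger SD of the pair, because each gene spread so widely over the tumors. Within tumors the top of the order repeated: S100a9 exceeded S100a8, and S100a8 exceeded Retnlg, in 3 of 3 tumors. Retnlg exceeded Ngp in 3 of 3, though by 1 and 2 reads in tumor 2. Lower down the order did not repeat, and Camp was above Lcn2, its neighbour, in 1 of 3 tumors.

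Counting intervals summarise the members tumor by tumor. No share over all genes stands beside these counts, so they describe the members and do not set them apart from other genes. The interval of the ratio between tumors 1 and 2 lay above 1 for 7 members and included 1 for Camp. Between tumors 3 and 2 it lay above 1 for 6, below 1 for Lcn2, and included 1 for Ltf. Between tumors 1 and 3 it lay above 1 for S100a8, S100a9, Ltf and Retnlg, and included 1 for Ngp, Camp and Mmp9. Lcn2, without a read in tumor 3, stood in tumor 1 at 12.6 times the FPKM of 3 reads in tumor 3. Elane and Mpo had too few reads for any ratio.

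The promoters of these genes are shown for the letters they share. The motifs were chosen with these promoter sequences in view, so the shares below are descriptions and do not test for enrichment. RefSeq (GRCm38.p6) gave the 250 bases before the start site for 9 of the 10 genes, and Mmp9 was not matched. A form of the C/EBP motif, TTGCNNAA on either strand, was found in 5 of the 9, beside 9.56% of 32851 promoters of the same length. A form of the motif of Spi1, the ETS factor of myeloid cells, AGGAAGT on either strand, was found in 3 of the 9, beside 7.69% of the same promoters. No promoter of the 9 held both, and that of Camp held neither. Ngp had 2 matches of the C/EBP letters, of which the one before the gene is shown, and the other, at chr9:110419778-110419807, lies within an annotated exon of Ngp. The 30 bases around a match are given 5′ to 3′ on the strand of the gene, with the match in capitals; a match describes letters and does not show binding.
S100a9 (chr3:90695939-90695968, minus strand, before the gene): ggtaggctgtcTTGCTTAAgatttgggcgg
Ngp (chr9:110419659-110419688, plus strand, before the gene): gtcctggtttaTTGCCCAAacctccttgcc
Ltf (chr9:111019206-111019235, plus strand, before the gene): aggcaggcctaTTGGGCAAtagggtggggc
Lcn2 (chr2:32387937-32387966, minus strand, within an annotated exon of Lcn2): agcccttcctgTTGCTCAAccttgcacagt
Retnlg (chr16:48872358-48872387, plus strand, before the gene): agctTTCTGCAAggcattccaggcacctcc
S100a8 (chr3:90668888-90668917, plus strand, before the gene): ccaacactcccACTTCCTcagactcagaaa
Elane (chr10:79886217-79886246, plus strand, before the gene): gtgtcccagggAGGAAGTagggctgtggcc
Mpo (chr11:87793550-87793579, plus strand, before the gene): tggagagagagAGGAAGTtgcctttgtccc
The first 5 genes hold the C/EBP letters and the last 3 the Spi1 letters, so that the set with C/EBP letters includes Lcn2, whose order of tumors differed from that of the others. The pair with no or 1 read, Elane and Mpo, shares its letters with S100a8, the second most abundant member.

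Other genes of neutrophils ran in mixed orders. On 5 lists of neutrophil genes (primary granule, specific granule, gelatinase granule and secretory vesicle, cytosol and secreted, receptors) there were 34 genes outside the members. The leading genes of these and all other lists are those with the highest mean FPKM over the tumors, and need not lead in each tumor. Tumor 2 was lowest for 14 of the 34, some of which had few or no reads. Of the 34, 20 had a mean of at least 0.2 FPKM, which a gene can pass through tumor 1 alone. Of these 20, tumor 2 was lowest for 12, beside 36.2% of genes at that mean, tumor 1 was highest for 14, beside 49.8%, and the order 1, 3, 2 was found for 11, beside 28.1%. In tumor 2, 5 of the 20 had no read. Among the 8 members with more than 1 read, the order of the tumors was the same under all 3 scalings for 7, Mmp9 being the exception.

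**Figure D2:**
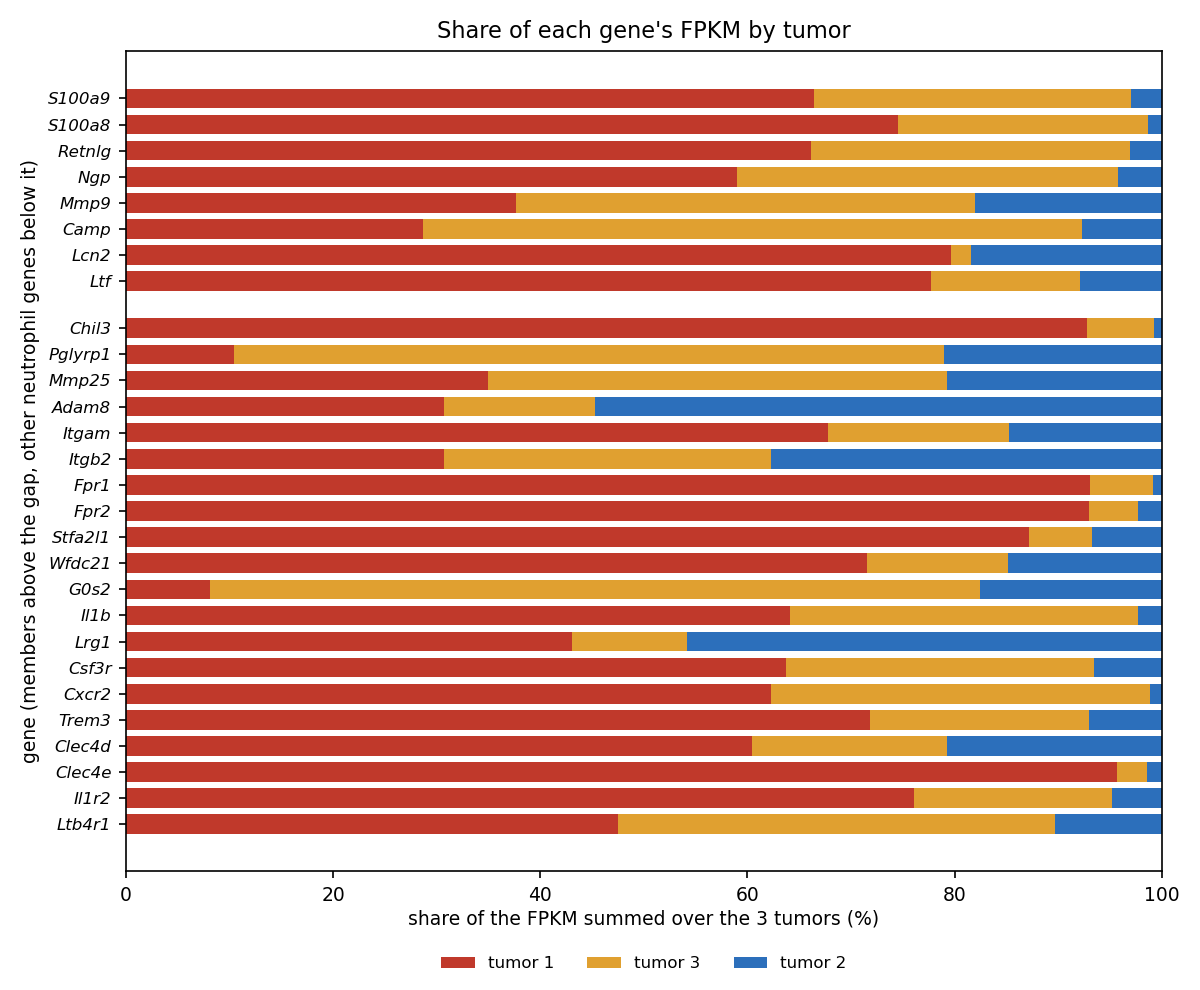
Share of each gene's FPKM, summed over the tumors, that came from tumor 1, tumor 3 and tumor 2 (percent). The upper bars are the 8 members with more than 1 read and the lower bars the 20 other neutrophil genes with a mean of at least 0.2 FPKM; tumor 2 holds the smallest part for 7 of the 8 members, while G0s2 and Pglyrp1 come mostly from tumor 3.

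Of 9 receptor genes of neutrophils, 7 were lowest in tumor 2, as the calprotectin pair was. Among all genes with a mean of at least 0.2 FPKM, which Ly6g and Trem1 did not reach, this share was 36.2%. Of the 7, Trem1, Clec4e, Ltb4r1, Trem3 and Cxcr2 had only 4, 4, 2, 0 and 0 reads in tumor 2. The list had a median of 0.833, 0.0704 and 0.311 FPKM and a sum of 11.4, 1.12 and 3.55 FPKM in tumors 1, 2 and 3. Csf3r, the receptor of granulocyte colony-stimulating factor and the gene of the list with the highest mean, stood at 3.15, 0.321 and 1.47 FPKM, with ratios to tumor 2 of 9.79 (95% interval 6.37 to 15.8) in tumor 1 and 4.57 (2.87 to 7.58) in tumor 3. Cxcr2, the chemokine receptor that draws neutrophils to tissue, had 78, 0 and 31 reads in tumors 1, 2 and 3. Tumors 1 and 3 stood at 16.1 and 9.44 times the FPKM of 3 reads in tumor 2, which leaves out the counting error of their own reads. Clec4e, a receptor of mycobacterial glycolipid, stood at 2.89, 0.0425 and 0.0873 FPKM, and Il1r2, the decoy receptor of interleukin 1, at 2.20, 0.138 and 0.555 FPKM. Ly6g, the surface antigen by which mouse neutrophils are usually stained, had 1 read in tumor 1 and none in the other tumors.

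The 5 primary granule genes summed to less FPKM than the 10 specific granule genes in each tumor. The list of 5 primary granule genes summed to 0.539, 0.339 and 0.208 FPKM in tumors 1, 2 and 3, and none of the 5 was above 0.2 FPKM in every tumor. The gene with the highest mean, Prss57, a serine protease, had 19, 11 and 5 reads, Prtn3 (proteinase 3) had 10, 0 and 0, and Ctsg (cathepsin G) had 3, 0 and 0. Prss57 was thus the only gene of the list with a read in tumors 2 and 3, and its ratio between tumors 3 and 2 of 0.415 had an interval of 0.113 to 1.30, so which of the 2 tumors was lower was not detectable. The list of 10 specific granule genes summed to 17.2, 4.92 and 16.4 FPKM, with 8, 1 and 4 genes above 0.2 FPKM in tumors 1, 2 and 3. Chil3, a chitinase-like protein also made by macrophages, stood at 11.9, 0.0969 and 0.826 FPKM. Pglyrp1, a peptidoglycan-binding protein and the gene of the list with the highest mean, though below Chil3 in tumor 1, stood at 2.13, 4.30 and 14.0 FPKM, lowest in tumor 1 and highest in tumor 3. Fcnb, ficolin B, had no read in any tumor. Without Pglyrp1 the list summed to 15.1, 0.611 and 2.37 FPKM, a step chosen after its values were seen.

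The other neutrophil lists held genes that are also used outside neutrophils. The list of 8 genes of gelatinase granules and secretory vesicles had a median of 3.17, 0.242 and 0.538 FPKM, but its sum of 137.4, 153.5 and 125.7 FPKM came mostly from Itgb2, the integrin chain that all leukocytes carry, at 118.1, 145.3 and 121.4 FPKM. Adam8, a membrane metalloproteinase, was highest in tumor 2, with 3.75, 6.69 and 1.80 FPKM. Fpr2, a formyl peptide receptor, stood at 8.09, 0.203 and 0.409 FPKM. The list of 12 cytosolic and secreted genes summed to 48.3, 9.97 and 35.8 FPKM with S100a9 as the gene with the highest mean, though below G0s2 in tumors 2 and 3, and its 9 genes outside the members to 10.5, 8.65 and 20.2 FPKM. G0s2, an inhibitor of fat breakdown that many cell types express, stood at 1.91, 4.12 and 17.5 FPKM and was highest in tumor 3.

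Partners of the granule proteins differed in how they ran. The 8 genes of receptors and inhibitors of granule proteins summed to 83.5, 12.8 and 34.3 FPKM in tumors 1, 2 and 3. Most of this was Slpi, the secreted inhibitor of elastase and cathepsin G, with 69.9, 5.49 and 24.4 FPKM and a ratio to tumor 2 of 12.7 (95% interval 10.6 to 15.4) in tumor 1 and 4.44 (3.65 to 5.44) in tumor 3. Serpinb1a, an intracellular inhibitor of the same proteases, stood at 3.70, 0.916 and 2.20 FPKM, and Cd44, a surface anchor of Mmp9, at 5.08, 0.895 and 6.89 FPKM. These 3 were the only genes of the 8 that were lowest in tumor 2. Tumor 3 was lowest for the other 5, named here after their values were seen: Tlr4, Ager, Slc22a17 and Lrp1 ran in the order 1, 2, 3, and Timp1 was highest in tumor 2, with 0.403, 2.67 and 0.0542 FPKM.

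The 6 genes of the NADPH oxidase, which feeds myeloperoxidase with hydrogen peroxide, summed to 387.1, 491.0 and 411.6 FPKM, highest in tumor 2. The highest means were those of Rac2 with 196.4, 282.9 and 231.2 FPKM, Cyba with 138.6, 148.5 and 139.9 FPKM, and Ncf4 with 30.8, 55.1 and 32.7 FPKM, genes that lymphocytes express as well. The 6 granulocyte transcription factors summed to 14.2, 20.7 and 5.22 FPKM, and most of the sum in tumor 2 was Gfi1. Of the 6, 4 (Cebpa, Cebpb, Cebpd and Spi1) ran in the order 1, 2, 3, and none was lowest in tumor 2. Gfi1, which T cells also use, had the highest mean, with 4.93, 16.1 and 2.69 FPKM, but was below Spi1 in tumor 1. Spi1 and Cebpd followed by mean, Spi1 with 5.87, 2.17 and 1.43 FPKM and Cebpd with 1.34, 1.13 and 0.707 FPKM. Cebpe, the factor needed for specific granules, had 1, 0 and 1 reads in tumors 1, 2 and 3. The 4 myeloid progenitor genes summed to 1.14, 0.994 and 0.474 FPKM, led by Kit with 0.785, 0.390 and 0.243 FPKM, Cd34 with 0.138, 0.571 and 0.0925 FPKM, and Hlf with 41, 0 and 16 reads.

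**Figure D3:**
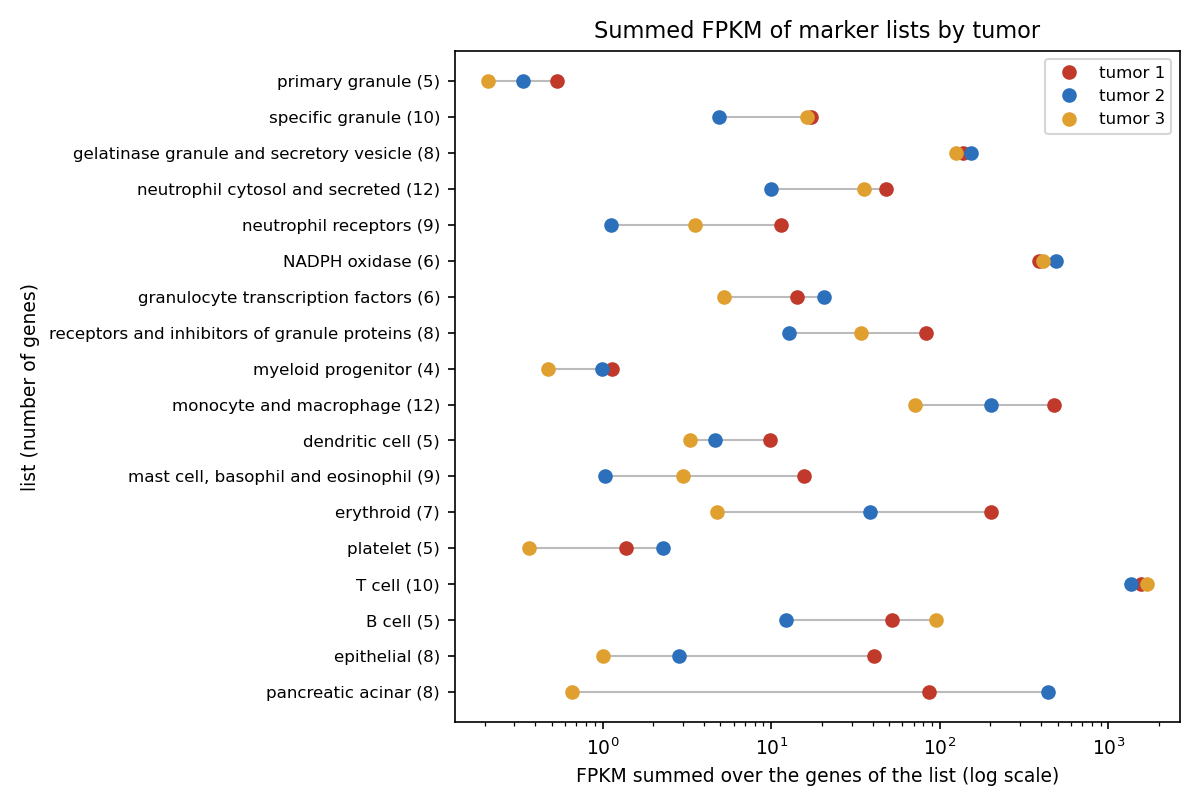
FPKM summed over the genes of each of 18 marker lists (log axis), with the number of genes of each list in parentheses, in tumors 1, 2 and 3. By these sums tumor 2 is lowest for the specific granule, cytosolic and receptor lists of neutrophils. Tumor 3 has the lowest sum for the primary and gelatinase granule lists and for the monocyte and macrophage, erythroid and pancreatic acinar lists. The gelatinase sum is mostly Itgb2, and 5 of the 8 genes of that list are lowest in tumor 2. In the primary list only Prss57 had a read in tumors 2 and 3, and which of these tumors was lower was not detectable. T cell genes are high in all 3 tumors.

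Markers of other cells in the nodes moved along other orders. The 12 monocyte and macrophage genes summed to 479.3, 202.8 and 71.0 FPKM in tumors 1, 2 and 3, with 12, 12 and 11 of them above 0.2 FPKM and Lyz2 as the gene with the highest mean, though below Ccr2 in tumors 2 and 3. Lyz2, lysozyme, which neutrophils also express, stood at 215.2, 33.1 and 20.3 FPKM, Ccr2 at 35.0, 53.2 and 34.0 FPKM, and C1qa, a complement gene of macrophages, at 74.5, 24.1 and 1.44 FPKM. Tumor 2 was lowest for none of the 12, and the order 1, 2, 3 held for 10 of them. Macrophage genes thus ranked tumor 2 above tumor 3, as Lcn2 did, whereas 7 members ranked tumor 3 above tumor 2. For 6 of these 7 members the ranking was beyond counting error, and for Ltf it was not. The part of macrophages in the values of the members was not tested.

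The 10 T cell genes summed to 1561, 1358 and 1693 FPKM, all 10 above 0.2 FPKM in every tumor, led by Cd8b1 with 434.7, 166.0 and 443.4 FPKM, Cd8a with 258.5, 121.8 and 218.1 FPKM, and Lck with 159.6, 207.8 and 207.2 FPKM. The tumors so carried the markers of their labelled cell type. The 5 B cell genes reported summed to 52.3, 12.3 and 94.7 FPKM, led by Cd79a with 23.1, 7.31 and 49.0 FPKM, Cd79b with 20.1, 3.72 and 35.5 FPKM, and Ms4a1 with 3.98, 0.400 and 5.31 FPKM. These 5 were each lowest in tumor 2, as most members were, and their part in the result was not tested.

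Among other blood cells, the 9 mast cell, basophil and eosinophil genes summed to 15.7, 1.04 and 3.01 FPKM, the order of the calprotectin pair, led by the mast cell proteases Cpa3 with 7.23, 0.278 and 1.46 FPKM and Tpsb2 with 5.96, 0.0488 and 0.312 FPKM, and by Ms4a2 with 0.613, 0.487 and 0.976 FPKM; Prss34 had no read. The 5 dendritic cell genes summed to 9.87, 4.63 and 3.29 FPKM, led by Itgax with 3.18, 1.47 and 0.762 FPKM, Xcr1 with 2.29, 1.47 and 0.973 FPKM, and Siglech with 2.52, 0.187 and 0.655 FPKM. The 7 erythroid genes, which mark blood in the tissue, summed to 202.5, 38.4 and 4.77 FPKM, led by the globin genes Hba-a1 with 92.3, 19.6 and 1.90 FPKM, Hba-a2 with 40.7, 8.22 and 0.0722 FPKM, and Hbb-bs with 35.3, 6.93 and 1.25 FPKM. The 5 platelet genes summed to 1.37, 2.28 and 0.367 FPKM, led by Pf4 with 0.361 and 1.75 FPKM in tumors 1 and 2 and no read in tumor 3, and Itga2b with 0.913, 0.406 and 0.194 FPKM, while Ppbp and Gp9 had no read in any tumor. Tumor 1 held the most erythroid RNA and the most RNA of the members. But tumor 3 held the least erythroid RNA and more of 7 members than tumor 2, for 6 of them beyond counting error. The part of blood in the vessels was not tested.

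Markers of tissue other than lymph node were present in some libraries. The 8 pancreatic acinar genes summed to 87.0, 440.3 and 0.657 FPKM, led by Ctrb1 with 33.9 and 197.7 FPKM in tumors 1 and 2 and no read in tumor 3, Prss2 with 14.9, 52.1 and 0.177 FPKM, and Cela2a with 6.72, 50.7 and 0.196 FPKM, so that tumor 2, lowest in most members, held the most of these. The 8 epithelial genes summed to 40.6, 2.85 and 1.01 FPKM, led by Cldn4 with 1467, 0 and 1 reads, Cdh1 with 13.7, 0.934 and 0.410 FPKM, and Epcam with 0.415, 1.14 and 0.307 FPKM, so that the sum in tumor 1 rests on Cldn4 and Cdh1. Of the keratins of the list, named here after their values were seen, Krt18 had 5, 15 and 5 reads and Krt8 had 0, 4 and 0, both highest in tumor 2, and Krt19, Krt5 and Krt14 had no read. Epithelial cells also express Lcn2 and Slpi, and their part in the values of these genes was not tested.

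**Figure D4:**
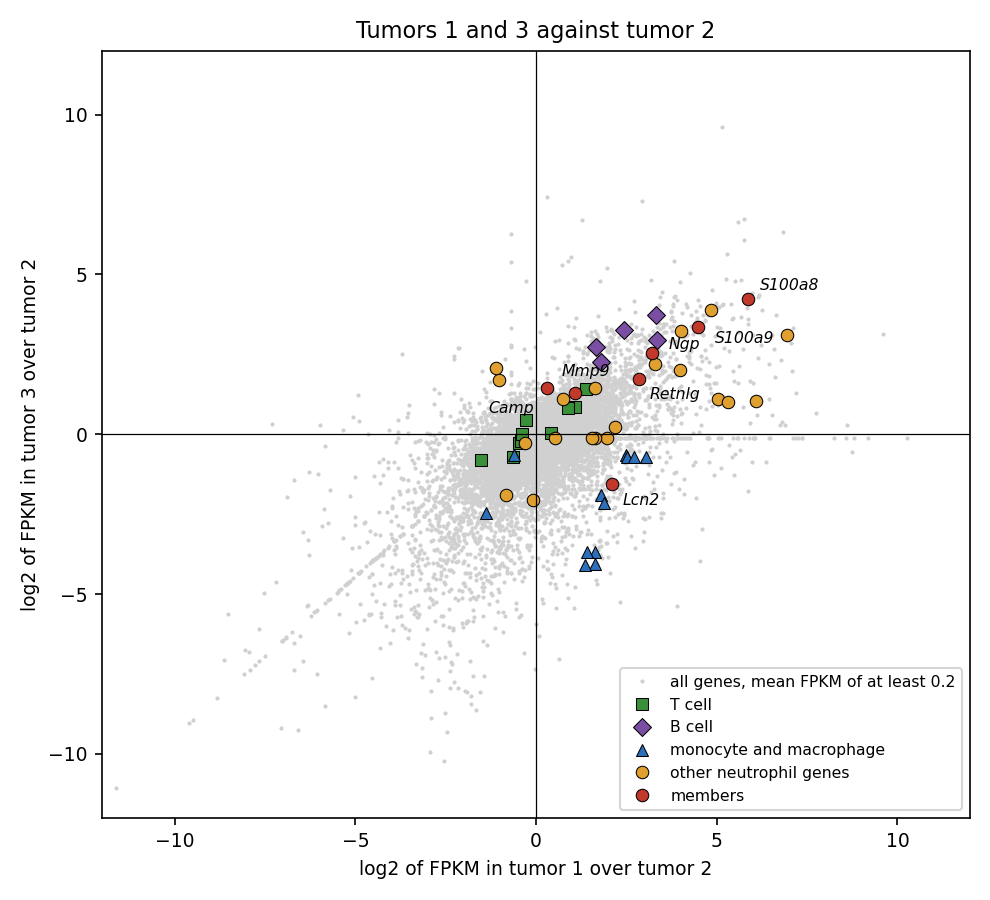
Log2 ratio of FPKM in tumor 1 over tumor 2 (horizontal axis) against that in tumor 3 over tumor 2 (vertical axis) for the 14733 genes with a mean of at least 0.2 FPKM (grey), with no tumor taken below the FPKM of 3 reads where reads were recovered. The 7 members at that mean are named in red; 6 lie in the upper right, above tumor 2 in both other tumors, near B cell genes (purple), and Lcn2 lies in the lower right with most monocyte and macrophage genes (blue).

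The pattern of S100a9 over 3 tumors was shared by genes of other kinds. Among 11195 genes outside the members with a mean of at least 1 FPKM, the 5 whose shares of FPKM over the tumors lay closest to those of S100a9 by Euclidean distance were Camk2d, Trbv2, Trbv12-1, Pros1 and Cd226, at distances of 0.00419 to 0.0133. Camk2d stood at 2.56, 0.101 and 1.18 FPKM and Pros1 at 24.4, 0.735 and 11.5 FPKM. Among the other neutrophil genes compared in this way, Il1b and Csf3r came nearest, at places 13 and 15. A likeness over 3 values is easily met and is given as a description.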

How the data were processed

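The values the authors deposited are FPKM per gene and tumor, from STAR alignments to mm10 quantified in SeqMonk over merged exons, on a linear scale and not pooled. The members and marker lists were chosen with earlier results of these data known. The table lists unread genes at 0.9 read, and this step gave each library's depth; with GENCODE M21 exon lengths, 93.7% of 34125 genes gave whole reads (within 0.02) in all 3 tumors, after allowing for gene ends that differ in the table, as for Retnlg. This recovery was tested on simulated data. Reads are printed only for such genes. A count of 0 was taken to allow up to 3 reads. Intervals of FPKM were exact Poisson and ratio intervals exact conditional binomial, both at 95%. Without a second group no test was made. Of repeated symbols the highest row was kept. Of the B cell list, 1 gene is not reported here.

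Named were the 10 members, the 3 genes of highest mean FPKM in each list, neutrophil list genes without a read in any tumor, Ly6g, Csf3r, Cxcr2 and Cebpe, and the 5 genes closest to the most abundant member. The other genes named, such as further markers without a read, were chosen after their values were seen. The motifs were chosen with the promoter sequences in view. Alternatives were other thresholds, scalings, a pseudocount of 0.1 FPKM and leaving out each tumor. Intervals were computed with SciPy 1.17.1, tables with pandas 2.3.3 and NumPy 2.4.6 under Python 3.11, and plots with matplotlib 3.10.9.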

Additional observations from a re-analysis of the deposited data

How the results depend on the processing

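The number of members above 0.2 FPKM in every tumor, 2, was 3 at a threshold of 0.1 FPKM, 1 at 1 FPKM, 6 with each tumor rescaled to sum to 1000000, which raises every value, and 2 to 6 when a tumor was left out, the 6 without tumor 2. The mean of the summed FPKM was 101.0 after that rescaling, 19.1 with median-of-ratios factors, and 9.72 to 29.1 when a tumor was left out. Members with over 60% of the summed FPKM in 1 tumor numbered 6, and 3 at a share over 70%; 7, 6 and 4 were counted after rescaling, with median-of-ratios factors and with a pseudocount of 0.1 FPKM. Members with a ratio of at least 2 numbered 6 to 8 under the alternatives run, beside 8. The count of 7 members lowest in tumor 2 was 7 under both other scalings, which were chosen for it after seeing the data. The mean FPKM of each of the 10 members stayed within 1 SD with median-of-ratios factors, and of none after rescaling. Without tumor 1 the mean of 6 members moved by over 1.5 times, to 2.26 FPKM for S100a8, 5.72 for S100a9, 0.479 for Retnlg, 0.417 for Ngp, 0.0886 for Lcn2 and 0.0432 for Ltf, and without tumor 3 that of Camp, to 0.164. No paired analysis was possible because the tumors form 1 group. Depth limits the ratios to tumor 2, where Camp, Ltf, Ngp, Retnlg and S100a8 had 1 to 3 reads.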

Other observations

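The gene cluster that holds S100a8 and S100a9 on chromosome 3 ranged from genes without a read to abundant ones. Chosen after the values were seen, the other S100 genes within 200 kb of the pair numbered 10, of which 4 were above 0.2 FPKM in every tumor, beside 36.7% of all genes. S100a6, a calcium-binding protein of many cell types, stood at 238.2, 173.7 and 197.7 FPKM in tumors 1, 2 and 3, the order of S100a8 and S100a9 over a narrower range. S100a13 stood at 57.8, 49.6 and 73.5 FPKM. S100a4, which is found in motile and memory T cells as well as myeloid cells, stood at 93.2, 36.9 and 20.4 FPKM and so was lowest in tumor 3. S100a5 and S100a2 had no read in any tumor.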
